A study of Mus musculus with 6 samples.

Results

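The 10 genes described here encode the insulin receptor (Insr), the type 1 IGF receptor (Igf1r), the insulin receptor substrates Irs1 and Irs2, the ligand Igf1, the acid-labile subunit Igfals and the binding proteins Igfbp1, Igfbp2, Igfbp3 and Igfbp4. They were chosen by name, out of the 15454 genes of the count table, and each was found once in that table and once in the FPKM table of 21948 rows. Liver RNA came from 6 male C57BL/6 mice aged 8 to 10 weeks, all of which had undergone warm ischemia and reperfusion of 75% of the liver. The 3 mice of the I/R group received the vehicle, a mixture of dimethyl sulfoxide, castor oil and saline, and are called vehicle livers here, and the 3 of the I/R+Rk2 group, the Rk2 livers, received ginsenoside Rk2, a saponin of ginseng, first given 2 days ahead of the operation and repeated as blood flow returned. The study names the sequenced Rk2 livers as those of its higher dose group, a dose the labels do not give. No liver without ischemia was analysed here, so each value is a difference between injured livers and not a distance from the uninjured state.

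Insulin and IGF1 bind related receptor tyrosine kinases, which phosphorylate IRS proteins and thereby recruit PI3K and activate AKT. Hepatocytes respond to insulin through Insr, whereas they carry little Igf1r, and they secrete most of the IGF1 in blood under the control of growth hormone, its receptor and the transcription factor STAT5B. In plasma IGF1 travels with binding proteins, largely in a complex of IGFBP3 or IGFBP5 with the acid-labile subunit, which is made by hepatocytes and prolongs its stay in the circulation. IGFBP1 forms small complexes, is repressed by insulin through FOXO1 and is induced by fasting, hypoxia and amino acid stress. The study was concerned with AKT signaling, and the comparison asks which of the genes that feed insulin and IGF signals into that kinase differed between the treatments.

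The deposited counts summed to between 16809613 and 35618074 per library. Levels below are counts per 1000000 (CPM) of a library size to which trimmed mean (TMM) scaling was applied, and differences are log2 fold changes of I/R+Rk2 over I/R from the edgeR quasi-likelihood test, with p-values adjusted over the 12411 genes tested. A gene was called with an adjusted p below 0.05. All 10 genes passed the filter on low counts, with the lowest count of any of them in any library being 25, for Igf1r. At this depth 3 counts stand for 0.0888 to 0.184 CPM. Nothing in the labels says whether the livers of a group came from separate operations or days, so the p-values measure the spread between these 3 livers a group.

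Rk2-treated livers carried more transcript of the substrate Irs1, the ligand Igf1, the carrier subunit Igfals and Igfbp2, and less of both receptors, Igfbp1 and Igfbp3. Of the 10 genes, 8 were called, 4 higher and 4 lower, whereas Irs2 and Igfbp4 were not called. Over all genes tested, 43.9% were called, 20.3% higher and 23.7% lower, so calls were frequent in this comparison whatever the gene. With a fold change above 2 as well, 2 of the 10 were called higher (Irs1 and Igfals) and 1 lower (Igf1r), against 3.17% and 11.4% of all genes. In 9 of the 10 the groups did not overlap, which was also the case for 57.4% of all genes. The median log2 fold change of the 10 genes was 0.22, and that of all genes was -0.01. Since the RNA came from liver tissue and not from sorted cells, fewer cells of a type and less RNA per cell cannot be told apart in these values.

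**Figure D1:**
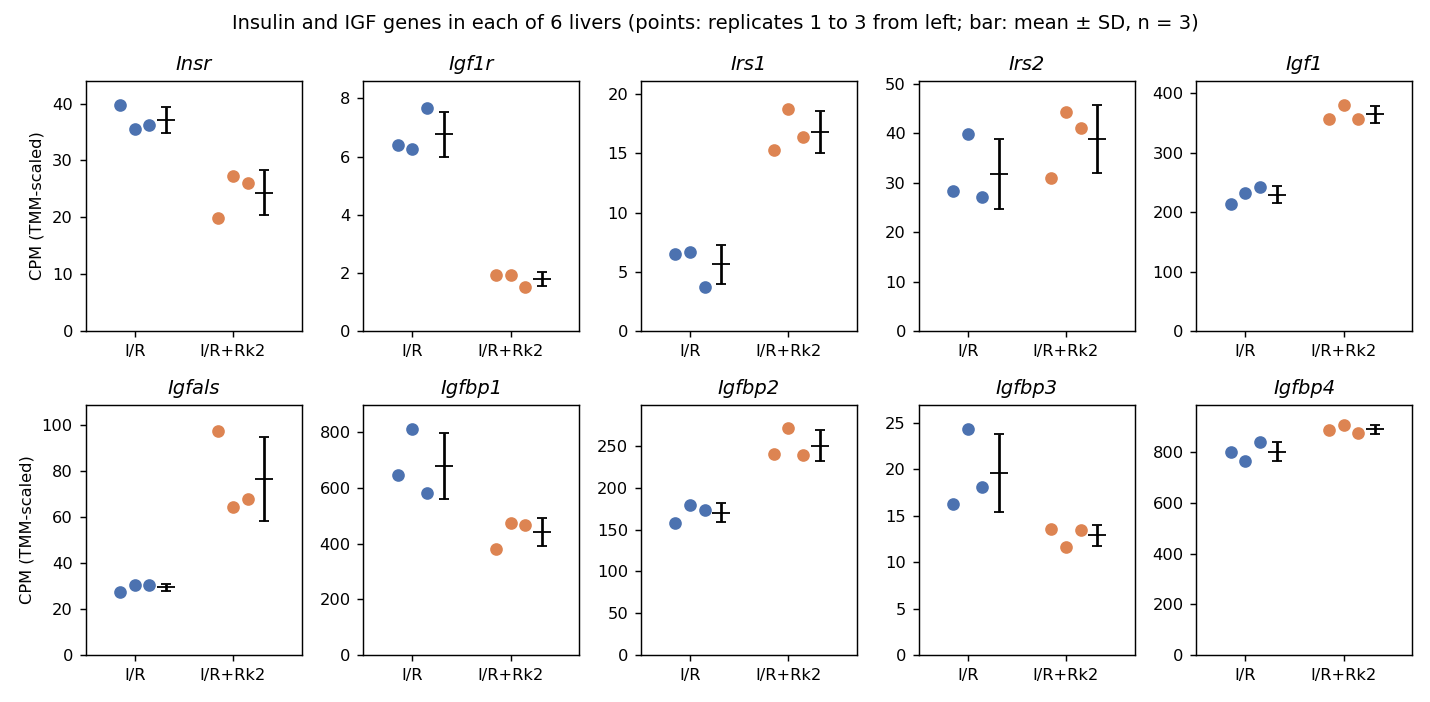
TMM-scaled CPM (y axis, from 0) of the 10 genes in each liver, with I/R in blue and I/R+Rk2 in orange, replicates 1 to 3 from left to right, and the mean ± SD (n = 3) beside each group. Irs2 is the gene whose groups overlap, and Igf1r and Irs1 show the widest separation relative to their level.

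Both receptors fell. Igf1r (chromosome 7, 67952827 to 68233668 on the plus strand of mm10), which binds IGF1 with high affinity, had 6.41, 6.24 and 7.65 CPM in the vehicle livers and 1.93, 1.92 and 1.53 CPM in the Rk2 livers. Every vehicle liver was thus more than 3 times above every treated liver, and the treated livers lay close together. The mean went from 6.77 ± 0.769 to 1.80 ± 0.227 CPM (SD, n = 3), a 3.73-fold fall, or -1.90 ± 0.18 (SE) as a log2 ratio (edgeR adjusted p = 0.000568). This was the largest change among the 10 genes by absolute log2 fold change, and 95.1% of all genes tested changed by as much or less. Long transcripts were lower as a class in the treated livers. With genes cut into 4 equal classes by the transcript length that count and FPKM imply, the longest class had a median log2 fold change of -0.28 and the shortest one of 0.23, and the implied length of Igf1r was 10.2 kb. With a smooth trend on length taken out of each library, Igf1r still fell, at a log2 ratio of -1.52 (edgeR adjusted p = 0.00136).

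Insr (chromosome 8, 3122061 to 3279617, minus strand), the receptor through which insulin acts on hepatocytes, had 39.7, 35.5 and 36.2 CPM in the vehicle livers and 19.8, 27.2 and 26.0 CPM in the Rk2 livers. The groups did not overlap, and replicate 1 of the treated group was the lowest. The mean went from 37.1 ± 2.27 to 24.3 ± 3.94 CPM, or -0.61 ± 0.13 (SE) as a log2 ratio (edgeR adjusted p = 0.0100). The call was lost in a single alternative, limma on unfiltered log2(FPKM + 1), with an adjusted p of 0.0574. The ratio of Insr to Igf1r in FPKM, which compares the receptors per transcript length within a library, was 19.1, 12.5 and 11.9 with vehicle and 30.1, 47.4 and 66.0 with Rk2. Insr was the more abundant receptor transcript in every liver, and the ratios of the groups did not overlap.

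The substrates moved unequally. Irs1 (chromosome 1, 82233101 to 82291416, minus strand), a docking protein for PI3K, had 6.51, 6.67 and 3.71 CPM in the vehicle livers and 15.3, 18.8 and 16.4 CPM in the Rk2 livers. All treated livers lay above all vehicle livers, among which replicate 3 was the lowest. The mean rose from 5.63 ± 1.67 to 16.8 ± 1.79 CPM, 2.99-fold, or 1.58 ± 0.23 (SE) as a log2 ratio (edgeR adjusted p = 0.00226). Its implied transcript length was 9.79 kb, and with the length trend taken out the log2 fold change was 1.95, so that it rose within a class of long transcripts that was lower in these livers.

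Irs2 (chromosome 8, 10984681 to 11008458, minus strand), the substrate that is abundant in liver and is induced there by fasting, had 28.4, 39.9 and 27.1 CPM in the vehicle livers and 31.1, 44.3 and 41.2 CPM in the Rk2 livers. The groups overlapped, since replicate 2 of the I/R group lay above replicate 1 of the treated group. The log2 fold change was 0.29 with a 95% confidence interval of -0.16 to 0.74 (edgeR adjusted p = 0.253), so a rise of the size of that of Igf1 lies inside the interval and that of Irs1 does not. Its adjusted p ran from 0.0539, with the length trend removed, to 0.668 over the alternatives. In FPKM the ratio of Irs1 to Irs2 was 0.158, 0.115 and 0.0940 with vehicle and 0.339, 0.293 and 0.275 with Rk2. Irs2 remained the more abundant substrate transcript in every liver, by a smaller margin after Rk2. Exons of Gm9747 overlap those of Irs1, and exons of 9530052E02Rik those of Irs2, on the opposite strand, and the strand setting of the counting is not given in the sources used here, so reads of these neighbors cannot be told apart from those of the substrates.

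The sequences upstream of the substrates are shown because the genes share letters there and yet differed in their change. They are the 250 bases before the RefSeq start on GRCm38.p6, written 5′ to 3′ on the strand of the gene, with capitals marking matches to CAAAACA, the core of the insulin response element that FOXO proteins bind (TGTTTTG on the other strand), and to ACGTG, the core of the hypoxia response element, which is also part of the E-box CACGTG and then matches on both strands. Irs1 lies at chr1:82291440-82291689 and Irs2 at chr8:11008930-11009179, each on the minus strand.
Irs1: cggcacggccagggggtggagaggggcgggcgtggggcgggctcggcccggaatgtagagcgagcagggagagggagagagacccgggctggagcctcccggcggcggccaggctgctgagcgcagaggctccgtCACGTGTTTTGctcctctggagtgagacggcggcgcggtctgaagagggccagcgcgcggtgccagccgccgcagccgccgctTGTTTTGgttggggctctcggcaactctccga
Irs2: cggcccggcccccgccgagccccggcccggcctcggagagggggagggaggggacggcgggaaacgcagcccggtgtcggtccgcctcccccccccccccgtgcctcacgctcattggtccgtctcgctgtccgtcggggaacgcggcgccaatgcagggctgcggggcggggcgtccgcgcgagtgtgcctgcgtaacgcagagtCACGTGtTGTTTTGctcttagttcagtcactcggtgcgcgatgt
Each holds an E-box next to a TGTTTTG match, and in Irs1 they overlap. In Irs1 the match begins 111 bases before the start, and a further TGTTTTG begins 32 bases before it, while the match of Irs2 begins 37 bases before its start. Neither RefSeq start has an annotated GENCODE transcript start within 10 bases, so these distances hold for the RefSeq starts only. Among all 32851 promoter entries, 5.56% hold CAAAACA on either strand in this window and 16.6% hold ACGTG. The E-box is not particular to the substrates, since a window of Igfbp2 also holds CACGTG, beginning 142 bases before its start, without a TGTTTTG match.

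Igf1 (chromosome 10, 87858265 to 87937042, plus strand), the circulating ligand, rose. Its levels were 214, 232 and 242 CPM in the vehicle livers and 357, 381 and 356 CPM in the Rk2 livers. The groups were far apart relative to the spread within them. The mean rose from 229 ± 14.1 to 365 ± 14.0 CPM, 1.59-fold, or 0.67 ± 0.09 (SE) as a log2 ratio (edgeR adjusted p = 0.00144). In FPKM, which is not corrected for library composition, Igf1 went from 152 ± 11.3 to 208 ± 10.4.

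Igfals (chromosome 17, 24865997 to 24882010, plus strand), which encodes the subunit that stabilizes circulating IGF complexes, rose more. Its levels were 27.6, 30.3 and 30.4 CPM in the vehicle livers and 97.4, 64.4 and 68.0 CPM in the Rk2 livers. The vehicle livers were nearly equal, and replicate 1 of the treated group stood above the other treated livers. The mean rose from 29.4 ± 1.62 to 76.6 ± 18.1 CPM, 2.60-fold, or 1.38 ± 0.17 (SE) as a log2 ratio (edgeR adjusted p = 0.00117). Without the high liver the log2 fold change was 1.16, and over all alternatives the adjusted p did not exceed 0.00773. Igf1 and Igfals are the members of the set best known as targets of growth hormone. Genes of the growth hormone arm, which changed in both directions, are described further on, and a link was not tested.

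RefSeq lists 3 starts for Igfals, and the window of the second is shown because it holds a match to TTCNNNGAA, the spacing that STAT dimers bind, close to the start. The window of the first holds another, TTCTCAGAA, 236 bases before its start, and that of the third, the one of the 3 with an annotated GENCODE transcript start within 10 bases, holds none of the motifs searched. It lies at chr17:24877981-24878230 on the plus strand of GRCm38.p6, and capitals mark that match and 1 to TGTTTAC, a forkhead consensus.
Igfals: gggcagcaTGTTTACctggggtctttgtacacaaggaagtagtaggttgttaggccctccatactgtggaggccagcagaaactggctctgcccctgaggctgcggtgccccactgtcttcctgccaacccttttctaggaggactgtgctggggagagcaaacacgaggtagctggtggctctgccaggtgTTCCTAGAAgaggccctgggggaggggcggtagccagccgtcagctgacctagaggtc
The STAT match, TTCCTAGAA, begins 58 bases before this start. A share of 7.02% of all promoter entries hold TTCNNNGAA and 3.17% hold TGTTTAC on either strand in the same window. The windows of Igf1, Igf1r, Igfbp3 and Igfbp4 hold none of the 6 motifs searched, which besides those spelled out here and below included TCACNCCAC, a sterol response element found in 1.05% of entries.

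The binding proteins changed in opposite directions. Igfbp1 (chromosome 11, 7197782 to 7202546, plus strand), the insulin-repressed and stress-induced member, had 648, 811 and 582 CPM in the vehicle livers and 383, 476 and 466 CPM in the Rk2 livers. The groups did not overlap, although the lowest vehicle liver and the highest treated liver were closer than the extremes of the I/R group. The mean fell from 680 ± 118 to 441 ± 51.2 CPM, 1.54-fold, or -0.62 ± 0.15 (SE) as a log2 ratio (edgeR adjusted p = 0.0142). The call held in each alternative run, with adjusted p-values up to 0.0375.

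The promoter of Igfbp1 is shown because it carries the insulin response element by which the gene is best known. The 250 bases before the RefSeq start lie at chr11:7197537-7197786 on the plus strand of GRCm38.p6, and capitals mark CAAAACA.
Igfbp1: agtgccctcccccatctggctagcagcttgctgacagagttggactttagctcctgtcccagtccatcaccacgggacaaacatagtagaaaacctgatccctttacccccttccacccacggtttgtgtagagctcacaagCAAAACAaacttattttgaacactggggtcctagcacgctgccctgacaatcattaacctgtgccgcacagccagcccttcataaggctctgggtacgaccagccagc
The match begins 108 bases before the start. Neither ACGTG, nor TGTTTAC, nor TGATGNAA, the core of the amino acid response element that ATF4 binds (held by 3.45% of promoter entries), was found in this window on either strand, which says only that these letters are not there.

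Igfbp2 (chromosome 1, 72824503 to 72852474, plus strand), another binding protein secreted by hepatocytes, rose. It had 158, 179 and 173 CPM in the vehicle livers and 240.1, 272 and 239.8 CPM in the Rk2 livers. The lowest treated liver was well above the highest vehicle liver. The mean rose from 170 ± 10.9 to 250.5 ± 18.3 CPM, or 0.56 ± 0.09 (SE) as a log2 ratio (edgeR adjusted p = 0.00362).

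Igfbp3 (chromosome 11, 7206086 to 7213923, minus strand), the main carrier of IGF1 in plasma and in liver a product of non-parenchymal cells, had 16.3, 24.3 and 18.1 CPM in the vehicle livers and 13.6, 11.6 and 13.4 CPM in the Rk2 livers. The groups did not overlap, with replicate 2 of the I/R group standing highest. The mean fell from 19.6 ± 4.21 to 12.9 ± 1.12 CPM, or -0.61 ± 0.17 (SE) as a log2 ratio (edgeR adjusted p = 0.0241). This call was lost in more alternatives than those of the other called genes. The edgeR adjusted p became 0.0533 on leaving out I/R replicate 2, became 0.0864 or 0.0520 on leaving out replicate 2 or 3 of I/R+Rk2, and was 0.0618 with a replicate block. Igfbp1 and Igfbp3 lie side by side on chromosome 11, in opposite orientation, and their exons do not overlap. The subunit Igfals and its partner Igfbp3 therefore moved in opposite directions.

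Igfbp4 (chromosome 11, 99041244 to 99054392, plus strand), an inhibitory binding protein, had 803, 765 and 841 CPM in the vehicle livers and 887, 908 and 875 CPM in the Rk2 livers. The treated livers lay just above the vehicle livers on this scale. The log2 fold change was 0.15 with a 95% confidence interval of -0.05 to 0.35 (edgeR adjusted p = 0.195), and its sign depended on the scaling, since it was -0.01 with library size alone and -0.03 on log2(FPKM + 1).

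**Figure D2:**
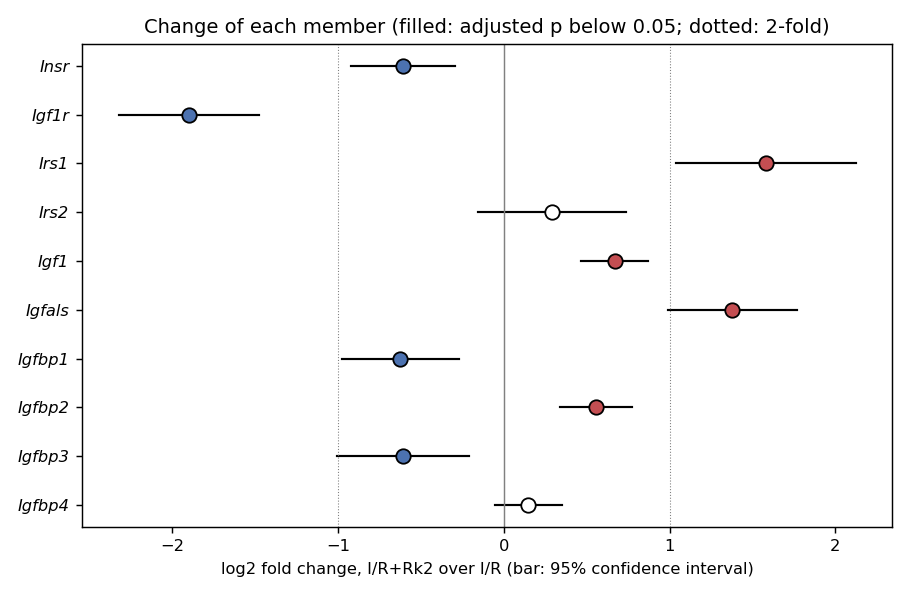
Log2 fold change of I/R+Rk2 over I/R (x axis) for the 10 genes, ordered from receptors to binding proteins, with 95% confidence intervals from the edgeR fit. Red points were called higher and blue points lower, and the open points are Irs2 and Igfbp4, whose intervals reach from -0.16 to 0.74 and from -0.05 to 0.35.

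The make-up of the binding protein transcripts differed as well. Per transcript length, Igfbp1 made up 51.6%, 55.8% and 46.5% of the summed FPKM of Igfbp1 to Igfbp4 in the vehicle livers and 33.2%, 37.1% and 38.3% in the Rk2 livers. Its share was lower in every treated liver than in every vehicle liver, with means of 51.3% ± 4.67 and 36.2% ± 2.64. Igfbp2 took up 15.3% ± 0.916 in I/R and 24.9% ± 0.787 in I/R+Rk2. The share of Igfbp4 was 32.5% ± 3.90 and 38.3% ± 2.23, a difference of 5.79 percentage points that came to 3.79 without I/R replicate 2, and in FPKM this gene itself went from 277 ± 14.5 to 271 ± 14.6. Igfbp3 contributed 0.934% ± 0.123 and 0.675% ± 0.0849. The sum of these FPKM values was 859 ± 69.3 with vehicle and 709 ± 33.4 with Rk2. FPKM is not corrected for library composition, and 69.5% to 72.8% of the genes called on it were lower, against 53.9% in the main fit. A fall of the sum therefore cannot be told apart from scaling. The ratio of Igf1 to Igfbp1 in FPKM, taken within a library, went from 0.344, 0.314 and 0.383 in the vehicle livers to 0.877, 0.793 and 0.766 in the treated livers. No test is given for shares and ratios, since 3 livers against 3 cannot reach a two-sided permutation p below 0.1 and the values follow from the genes tested above.

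**Figure D3:**
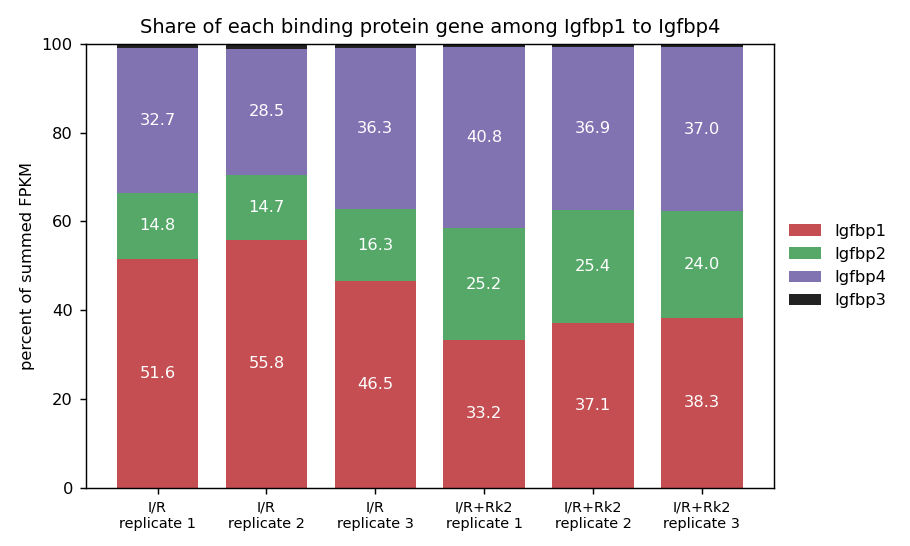
Share of each binding protein gene in the summed FPKM of Igfbp1 to Igfbp4 (y axis, percent) in each of the 6 livers (x axis), with printed values except for Igfbp3, the thin black band at the top. Igfbp1 is the largest part of every I/R bar, at 46.5% to 55.8%, and takes 33.2% to 38.3% of the I/R+Rk2 bars.

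The order of levels per transcript length differed between the groups. In the vehicle livers Igfbp1 was the most abundant, with 443 ± 74.4 FPKM, followed by Igfbp4, by Igf1 and by Igfbp2 with 131 ± 3.31 FPKM, and none of these overlapped with its neighbor. In the Rk2 livers Igfbp4 and Igfbp1 (257 ± 24.2 FPKM) overlapped, so that neither was set above the other, and Igf1 and Igfbp2 (176 ± 12.8 FPKM) followed. Igfals stood at 13.8 ± 0.137 and 32.4 ± 8.59 FPKM. Insr and Igfbp3 overlapped in the vehicle livers, at 10.9 ± 1.72 and 8.04 ± 1.46 FPKM. Irs2, at 4.97 ± 0.998 FPKM, lay below both. In the treated livers Insr (7.26 ± 1.29 FPKM) overlapped with Irs2 (5.44 ± 0.874 FPKM), and Irs2 with Igfbp3 (4.77 ± 0.406 FPKM). At the low end Igf1r (0.766 ± 0.0807 FPKM) and Irs1 (0.613 ± 0.202 FPKM) overlapped in the vehicle livers. They were apart in the treated livers, with 0.161 ± 0.0377 FPKM for Igf1r and 1.63 ± 0.165 FPKM for Irs1.

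**Figure D4:**
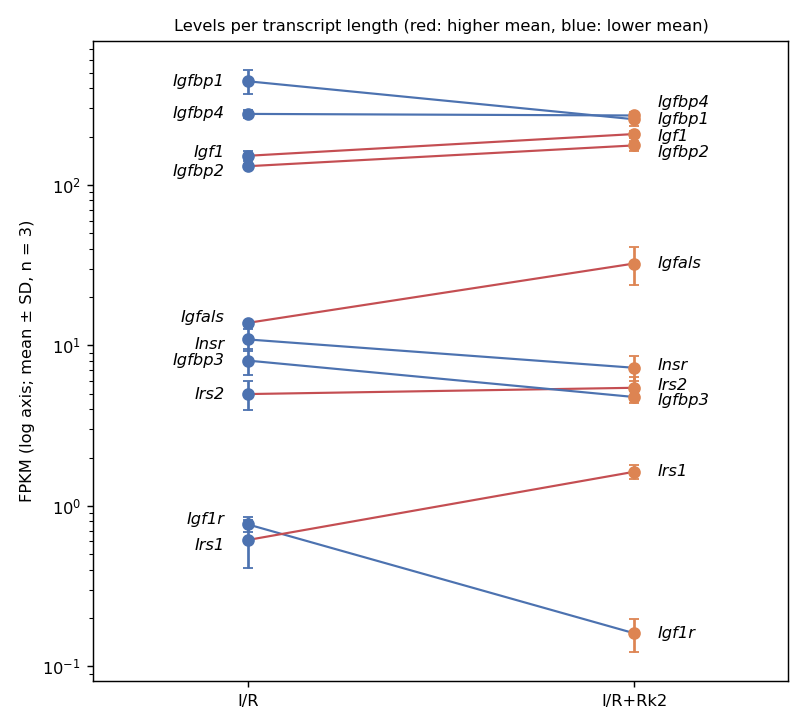
Mean FPKM ± SD (y axis, log scale, n = 3) of each gene in I/R and I/R+Rk2, joined by a red line where the mean was higher in I/R+Rk2 and a blue line where it was lower. The lines of Igf1r and Irs1 cross at the bottom, at 0.766 and 0.613 FPKM in I/R, and that of Igfbp1 comes down to Igfbp4 at the top.

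Few of the other ligands, receptors and binding proteins of the system were called. Ins1, Ins2, the orphan receptor Insrr and Igfbpl1 were listed at 0 FPKM in all 6 livers. Of the remaining 5 genes, 1 was called (20%, against 43.9% of all genes). This was Igf2r, the receptor that clears IGF2 and carries lysosomal enzymes, which went from 39.8 ± 3.23 to 31.3 ± 1.85 CPM (log2 ratio -0.35, edgeR adjusted p = 0.0247), but with the length trend taken out its log2 fold change was 0.03, and the call was lost in 6 other alternatives. Igf2, a fetal ligand that adult mouse liver hardly expresses, was covered by 11, 15 and 23 counts with vehicle and by 9, 10 and 6 with Rk2 (edgeR adjusted p = 0.0586). Igfbp7, a low-affinity relative found in vessels, had 58.9 ± 6.66 and 59.8 ± 4.35 CPM (edgeR adjusted p = 0.899), and Igfbp5 had 4.66 ± 0.655 and 8.13 ± 3.35 CPM (0.0622). Igfbp5 was called higher by DESeq2 (adjusted p = 0.0378), with the replicate block (0.0486), with the length trend removed (0.0246) and without I/R+Rk2 replicate 2 (0.0432), and Igf2 was called lower in 2 alternatives. Igfbp6 lay between 2.18 and 2.19 CPM in the vehicle livers and between 0.672 and 2.95 CPM in the Rk2 livers, so that the latter spread to either side of the vehicle livers (edgeR adjusted p = 0.464), and without the highest of them, I/R+Rk2 replicate 3, it was called lower (0.0452). On leaving out replicate 1 or 3 of I/R, 0 of the 5 were called.

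Among enzymes that cleave binding proteins, and the stanniocalcins that inhibit the pappalysins among them, 5 of 6 tested genes were called, all lower. That share of 83.3% compares with 43.9% called over all genes, 23.7% of them lower calls among all tested. The median log2 fold change of the 6 was -0.78. Stc1 and Stc2, the inhibitors, changed by -1.59 and -1.64 on the log2 scale (edgeR adjusted p = 0.00751 and 0.00964) at low levels, 1.01 ± 0.0690 and 1.13 ± 0.261 CPM in I/R. The metalloproteases Adam9 and Adamts1 had log2 fold changes of -0.65 and -0.59 (0.00189 and 0.00667). Pappa, the pappalysin itself, was below the filter, at 0.363 ± 0.0783 CPM with vehicle and 0.157 ± 0.0343 CPM with Rk2.

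Among receptor adaptors, 4 of 8 tested were called lower and 0 higher, with a median of -0.26. That share of 50% was near the 43.9% called over all genes, of which 23.7% were called lower. Grb2, which couples receptors to RAS, changed by -0.38 on the log2 scale (edgeR adjusted p = 0.0152). Sh2b2 (-1.45, 0.0142) and Dok1 (-1.35, 0.0322) fell further, the former from 9.44 ± 0.694 to 3.42 ± 1.95 CPM. On leaving out either I/R replicate 3 or I/R+Rk2 replicate 2, 2 of the 8 were called. Dok1 lost its call in 5 alternatives, Grb2 in 2 and Sh2b2 in 1. The remaining substrates of the family were hardly present, as Irs3 had 3 counts in a single vehicle liver and 0 elsewhere and Irs4 was listed at 0 FPKM.

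Genes that restrain the receptor or remove insulin went both ways, with 11 of 17 called, 5 higher and 6 lower. That share of 64.7% compares with 43.9% called over all genes, 20.3% higher and 23.7% lower. The smallest p-values were those of Ptpn1 and Ptpn2, phosphatases that act on the insulin receptor and on JAK kinases. Ptpn1 had 94.2, 109 and 96.1 CPM in the vehicle livers and 34.3, 23.2 and 23.8 CPM in the Rk2 livers, which is -1.88 as a log2 ratio (edgeR adjusted p = 0.000463). Ptpn2 went from 41.1 ± 5.96 to 14.1 ± 1.89 CPM (log2 ratio -1.54, 0.000588). Cbl, a ubiquitin ligase of receptor kinases, had a log2 fold change of -1.45 (0.000982), and Socs1, which blocks JAK kinases and IRS proteins, one of -1.66 (0.00147). The 6 called lower had log2 fold changes from -0.49 to -1.88, and the 5 called higher from 0.31 to 0.84, with Grb14, an inhibitor of the insulin receptor, rising the most of these (0.84, 0.00165). On FPKM 6 or 7 of the 17 were called.

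In the growth hormone arm, 4 of 7 tested genes were called (57.1%, against 43.9% of all genes), 2 in each direction. Ghr, the growth hormone receptor, had 158, 164 and 179.7 CPM in the vehicle livers and 225, 263 and 297 CPM in the Rk2 livers, which is 0.65 as a log2 ratio (edgeR adjusted p = 0.00540). Its FPKM values overlapped between the groups, from 71.9 to 87.9 and from 86.1 to 93.4, and limma on log2(FPKM + 1) gave a log2 fold change of 0.18 with an adjusted p of 0.217, so the rise rests on the counts. Stat5b, which activates Igf1 and Igfals, had a log2 fold change of 0.70 (0.0478), with overlapping groups, and lost its call in 11 of 18 alternatives. Jak2, the kinase of the receptor, fell from 29.4 ± 4.61 to 14.1 ± 1.80 CPM (log2 ratio -1.06, 0.00228), and Cish, a feedback inhibitor that STAT5 induces, from 8.97 ± 1.26 to 4.02 ± 0.907 CPM (-1.15, 0.00393). Socs2 (-0.68, edgeR adjusted p = 0.155), Bcl6 (0.59, 0.319) and Stat5a (0.19, 0.178) were not called. Whether any gene of this arm bears on Igf1 or Igfals was not tested.

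Targets of insulin signaling were compared in both directions. All 13 insulin-induced metabolic genes were called higher, against 20.3% of all genes, and their median was 1.24. With a fold change above 2 as well, 12 of the 13 were called higher, against 3.17% of all genes. The count of genes called was 8 of 13 without I/R replicate 1 and also 8 without I/R replicate 3, and the groups of Thrsp overlapped. Earlier results of these data had shown such genes to rise, so this is no independent evidence. Examples are Mlxipl (ChREBP, 1.05, edgeR adjusted p = 0.00428), the fatty acid synthase gene Fasn (1.74, 0.00594) and the pyruvate kinase gene Pklr (1.41, 0.00725). Genes that FOXO1 induces when insulin is low, as it does Igfbp1, did not move as one. Of 12 tested, 4 were called (33.3%, against 43.9% of all genes), 3 higher and 1 lower, with a median of 0.15. G6pc, which releases glucose from glucose-6-phosphate, had 149, 193 and 178 CPM in the vehicle livers and 759, 947 and 557 CPM in the Rk2 livers, which is 2.12 as a log2 ratio (edgeR adjusted p = 0.000593). Sesn1 (0.78, 0.00300) and Klf15 (0.85, 0.0101) also rose, whereas Pdk4, which restrains glucose oxidation, fell (-0.89, 0.000712). Igfbp1 thus shared its direction with Pdk4 and not with G6pc.

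Igfbp1 is also known to respond to hypoxia and to the integrated stress response, and lists for these were examined beside it. Of 12 tested hypoxia-induced genes, 8 were called (66.7%, against 43.9% of all genes), 7 lower and 1 higher, with a median of -0.85. Slc2a1, a glucose transporter, changed by -2.04 on the log2 scale (edgeR adjusted p = 0.000240), hexokinase 2 (Hk2) by -2.03 (0.000982), the lipid droplet gene Hilpda by -1.34 (0.00137) and Ankrd37 by -2.82 (0.00174). Of 12 genes of the integrated stress response, 4 were called (33.3%, against 43.9% of all genes), all lower, with a median of -0.45. They were the asparagine synthetase gene Asns (log2 ratio -1.94, edgeR adjusted p = 0.000699), Sesn2 (-1.28, 0.000753), Psat1 of serine synthesis (-3.47, 0.00187) and the glutathione-degrading Chac1, which went from 31.4 ± 3.78 to 15.7 ± 1.69 CPM (0.00155). Whether any of these pathways bears on Igfbp1 was not tested.

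**Figure D5:**
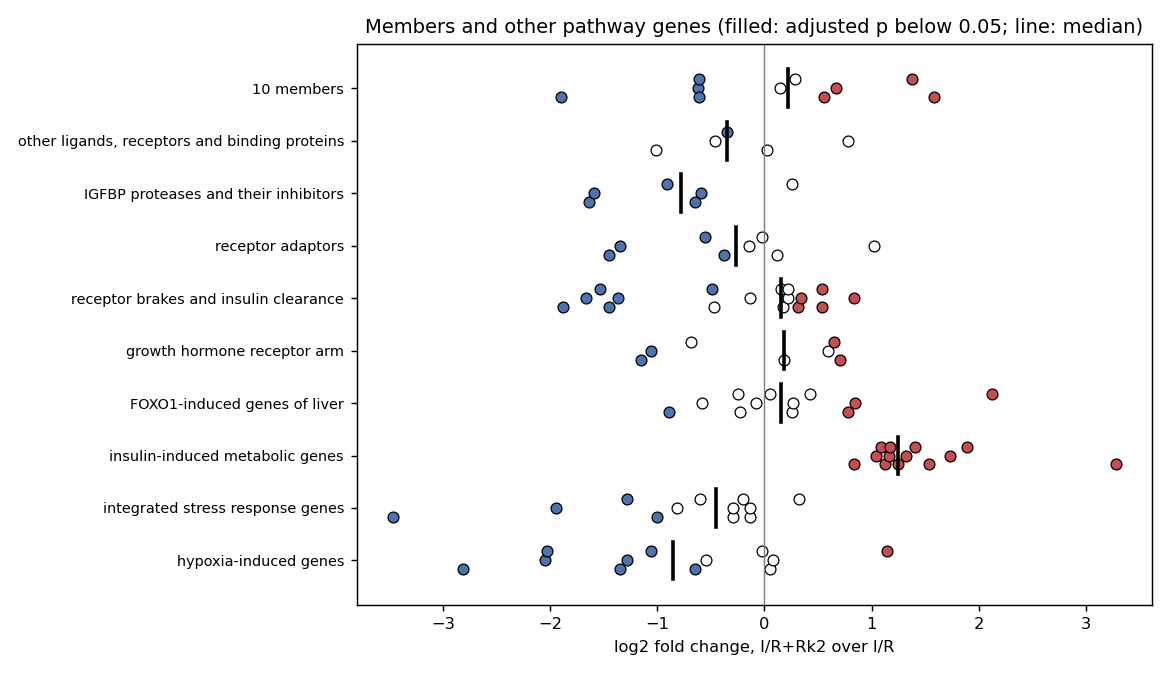
Log2 fold change of I/R+Rk2 over I/R (x axis) of the 10 genes and of each tested gene of 9 other lists (rows), with called genes filled red when higher and blue when lower and open circles for genes not called, and a black line at each median. The 13 insulin-induced metabolic genes all lie to the right of 0, while the 10 genes are split into 4 called higher and 4 called lower.

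Cell type markers moved between the groups as well, in a comparison in which 43.9% of all genes were called, 20.3% higher and 23.7% lower. All 12 hepatocyte markers were detected. Their summed level ran from 78697 to 89685 CPM with vehicle and from 109550 to 133180 CPM with Rk2. Its largest part was Alb, with 44242 to 52447 CPM with vehicle and 68854 to 88010 CPM with Rk2. The sum therefore mainly follows this gene. Of the 12 hepatocyte markers, 8 were called, 6 higher and 2 lower, with a median of 0.35. The log2 fold changes of those called ran from -0.62 to 1.06, a range that also holds those of Igf1 (0.67) and Igfbp2 (0.56), while that of Igfals (1.38) lay above it. All 10 monocyte markers were called lower with a median of -3.99, and 9 of 11 tested neutrophil markers with one of -2.22. The summed level of the neutrophil markers went from 1124 to 1441 CPM down to 140.5 to 282 CPM. Its largest part in the vehicle livers was Lcn2, with 633 ± 167 CPM there and 48.8 ± 11.9 CPM with Rk2. The fall of the sum therefore largely follows this gene. The summed level of the monocyte markers was 1603 to 1926 CPM with vehicle and 1129 to 1185 CPM with Rk2. It was mostly Fn1, which hepatocytes also express and which had 1609 ± 178 and 1149 ± 30.5 CPM. The other 9 monocyte markers summed to 183 to 215 CPM with vehicle and 10.7 to 18.1 CPM with Rk2, a sum added after the data were seen. Non-parenchymal cells are known to express Igfbp3 and Igf1r. Endothelial markers had 5 called higher and 4 lower of 12 (242 to 251 CPM with vehicle and 209 to 251 CPM with Rk2). Stellate markers had 5 called lower of 11 (248 to 299.8 and 187 to 243 CPM) and Kupffer cell markers 2 lower of 12 (259.8 to 320.2 and 220.1 to 314 CPM). The Kupffer cell sum was mostly C6, with 159 ± 16.2 and 168 ± 45.3 CPM. Of the 12 Kupffer cell markers, 11 had a negative log2 fold change, and the median was -0.46. Cholangiocyte markers had 1 called higher and 4 lower of 9, with sums of 188 to 248 CPM with vehicle and 111 to 141 CPM with Rk2. The largest part of that sum was Spp1, with 162 ± 29.7 and 70.5 ± 14.1 CPM, so the sum mainly follows this gene. Of 12 T, NK and B cell markers 1 could be tested and it was not called, with Nkg7 at 0 in all vehicle livers and in 2 of 3 Rk2 livers, and a summed level of 1.09 to 2.38 CPM with vehicle and 2.15 to 4.62 CPM with Rk2. The part of cell make-up in the changes of the 10 genes was not tested.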

How the data were processed

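Liver RNA of 6 mice, 3 in the I/R group and 3 in the I/R+Rk2 group, was sequenced by the authors from MGI libraries. Per the labels, the processing notes name FastQC 0.11.5, HISAT2 2.2.1, StringTie 1.3.3 and the build mm10. The annotation, the strand setting and the way StringTie output became counts are not given in the sources used here. The authors deposited whole-number counts per gene and FPKM values, and counts of one group differed far beyond sampling noise, so each library was 1 replicate. Groups and replicate numbers came from the sample titles.

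Counts were fitted in R 4.3.3 with edgeR 4.0.16 (filterByExpr, TMM, estimateDisp, glmQLFit and glmQLFTest, no covariates) over 12411 genes, with Benjamini-Hochberg adjustment, and the scripts were first tested on simulated data. Standard errors are the absolute log2 fold change over the square root of F, and errors of means are SD. Levels of different genes were compared in FPKM. Alternatives were other scalings and filters, DESeq2 1.42.0 (the study's tool), limma 3.58.1 (voom, and log2 of the deposited FPKM plus 1 or 0.1, with a mean FPKM of at least 1 or unfiltered), a replicate block, a lowess trend on transcript length (span 0.3) and leaving out each liver. Promoter sequences are RefSeq's on GRCm38.p6, which held 9 of the 10 genes (not Insr), and gene positions are GENCODE's on the same build. Intervals and depth limits cover counting error or the spread of livers only.

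The genes and lists were chosen with earlier results of these data known. Besides the 10 genes and the other ligands, receptors and binding proteins, at most 4 genes a pathway list and 2 a marker list are named, by smallest p, and some that the rule covers are not reported here. Outside that rule, Pappa, Irs3, Irs4, Nkg7, Thrsp, Grb14, Stat5a, Socs2, Bcl6, Alb, Lcn2, Fn1 and C6 were named after their values were seen.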

Additional observations from a re-analysis of the deposited data

How the results depend on the processing

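Of 178 values of the 10 genes under the alternatives, 169 kept their direction and side of the threshold. Those that did not belong to Insr, Igfbp3 and Igfbp4. Igfbp4, not called, changed sign with library size alone (-0.0134) and on FPKM (-0.0324 and -0.0325 filtered, with pseudocounts of 1 and 0.1, and -0.0324 unfiltered). Igf1r had no value in the FPKM fits that required a mean of at least 1. Igf2r changed sign with the length trend removed (0.0312). Igfbp7 did so with library size alone (-0.134), the length trend removed (-0.169), FPKM (-0.126, -0.128 and -0.126) and on leaving out I/R replicate 1 (-0.0548) or I/R+Rk2 replicate 1 (-0.0440), with a range of -0.0548 to 0.0979 without 1 liver. The cause was not tested.

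Between 7 and 8 of the 10 genes were called in every alternative, and between 7 and 8 without 1 liver. Genes called higher over the whole table numbered 2516, but 1320 with library size alone, which shifts the median of all genes to -0.17, 1172 and 1148 on filtered FPKM and 1124 on unfiltered FPKM, and from 1640 (without I/R+Rk2 replicate 2) up to 2401 without 1 liver, with 1645 without I/R replicate 3. With library size alone 72.5% of called genes were lower, and on FPKM 69.5% to 72.8%, against 53.9%. On filtered FPKM, 3 protease and inhibitor genes were called against 5, also 3 with 10 counts required in every library. Stc1 and Stc2 did not pass either of these filters, so they were not tested there. On FPKM 2 genes of the growth hormone arm were called against 4. Shares and ratios kept their direction on leaving out any 1 liver.

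The replicate block called 4713 genes against 5454 and 7 of the 10 genes against 8, the loss being Igfbp3. Deviations of same-numbered livers had correlations of -0.0559, 0.00522 and -0.0579, and no liver correlated best with its own number. These values show no sign of pairing by number, but they cannot exclude operations or days shared by number. On 3 livers a group, each uncalled gene may differ by any amount inside its interval.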
